A study of Homo sapiens with 6 samples.

Results

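The genes described here carry glucose into cells and control its breakdown to pyruvate. They are the glucose carriers SLC2A1 and SLC2A2, the hexokinases HK1 and HK2, the phosphofructokinase subunits PFKL, PFKM and PFKP, the pyruvate kinase PKLR and the enolase ENO2. All probes that the scanner files name for these genes were taken, with control spots left out, which gave 13 of the 41000 probes, for 9 of the 16339 genes that could be named. No probe was chosen by its values. The RefSeq accession of each of the 13 probes gave the same symbol as the array.

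The study measured RNA of HepG2, a line grown from a human liver tumour, on 6 Agilent single-channel arrays. A control array was set beside arrays of cells exposed to 100 µg/ml of an extract of Scutellaria baicalensis, the skullcap root of East Asian medicine, for 1, 3, 6, 12 or 24 h. Each of the 6 groups held 1 array, so a difference from the control has neither a replicate check nor a p-value. When the control was taken is not stated, and no control matched to the later times was used here, so hours in culture and hours of extract cannot be told apart. What solvent the control received is not given in the sources used here.

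Some arrays were far brighter than others. On the control array 75% of probes read below 768 units of processed signal, and at 1, 3, 6, 12 and 24 h this 75th percentile stood at 1090, 1900, 153, 420 and 1640 units. The share of spots well above background, as the scanner software called it, was 50.6% at 6 h and 65.1% at 12 h, and lay between 70.5% and 73.8% on the other arrays. Levels below are therefore log2 of the processed signal minus the 75th percentile of the same array, and a difference is the treated array minus the control array on that scale. The median difference over all genes measured was still 0.35 at 6 h and 0.21 at 12 h, and lay between -0.05 and 0.02 at the other times. Such a scaled level does not separate fewer cells making an RNA from less RNA per cell. All 10 hepatocyte markers tested, among them ALB, APOA1 and HNF4A, were well above background on every array, and 8 of them were saturated on at least 1 array. Of the other cell types' markers, 2 of 6 haematopoietic, 1 of 4 endothelial, 0 of 6 fibroblast and stellate, 2 of 3 biliary, 0 of 3 neuronal and 2 of 4 muscle genes were well above background on all 6 arrays. HBB, CDH5, KDR, COL1A1, COL3A1, LUM, KRT7, SNAP25, DES and MYH7 were not well above background on any.

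Glucose enters cells through carriers of the SLC2 family and is trapped inside by hexokinases, which add a phosphate. Phosphofructokinase then commits the sugar to glycolysis, and pyruvate kinase makes ATP in the last step. Normal hepatocytes use the low-affinity carrier SLC2A2 and the liver forms PFKL and PKLR, whereas liver tumours often make SLC2A1, HK2 and the pyruvate kinase PKM, forms with a higher affinity for glucose or a wider tissue range.

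The probes of HK2 and PFKL are shown because the results turn on how 2 probes of 1 gene compare. Each probe is 60 bases long, and capitals mark the longest run made only of A and T. For HK2, whose probes had no reading frame free of stop codons, a stretch of 30 bases is given. It covers bases 31 to 60 of the first probe and 7 to 36 of the second.
HK2 A_23_P398460: ggttctcctaaaacatgAAAATTATctccc
HK2 A_32_P175739: tcggggtgtgatgAATAgcaaatcatctca
PFKL A_23_P29079: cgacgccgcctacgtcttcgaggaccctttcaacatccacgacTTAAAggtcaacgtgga
PFKL A_23_P29081: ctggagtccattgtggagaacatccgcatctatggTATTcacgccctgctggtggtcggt
The whole HK2 probes held 36.7% and 43.3% G and C, in the order listed, and both PFKL probes held 55%. The scanner files place the HK2 probes at chr2:75029933-75029992 and chr2:75031986-75032045, both on the plus strand, with starts 2053 bases apart. The PFKL probes lie at chr21:44568918-44569177 and chr21:44567292-44567351, also on the plus strand, with starts 1626 bases apart. The first PFKL probe has a span of 260 bases there for its 60 bases, as a probe across a splice junction does. The build of these coordinates is not given in the sources used here. None of the 13 probes lay inside the GRCh38 range of its gene, so the positions are not from that build and no exon is assigned.

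On these arrays the 9 genes gave 3 patterns. HK2 was more than 2-fold lower from 3 h on by its probe A_23_P398460, whereas its brighter probe stayed within 2-fold of the control with the scaling used here. At 6 h the brighter probe was 0.15 above the control, but lay as low as -1.34 in other ways of processing. PFKL was above the control by both probes at 1, 3 and 24 h, with differences of 1.23 and 1.37 at 1 h. Both probes passed 2-fold at 1 h, and only A_23_P29081 did at 3 and 24 h. With the scaling used here the other 7 genes stayed within 2-fold of the control where measured, with these exceptions. SLC2A1 at 6 h depended on the scaling and the background correction, and 1 probe of SLC2A2 at 12 h on the background correction. For SLC2A2 and HK1 at 6 h, a probe not well above background gave no firm value. In some other ways of processing, PFKM, PKLR, ENO2 and the second SLC2A2 probe also passed 2-fold at 6 h.

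The error of a difference was taken from genes with exactly 2 measured probes, as a single-probe SD. It was 0.37 at 1 h (3127 genes) and 0.48 at 3 h (3103 genes). It was larger later, at 0.78 for 6 h (2092 genes), 0.68 for 12 h (2884 genes) and 0.69 for 24 h (3104 genes). It holds the disagreement of probes and leaves out the spread between cultures and arrays. A difference is called measured where the probe was well above background and not saturated on both arrays, and a gene is counted by its brightest probe.

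**Figure D1:**
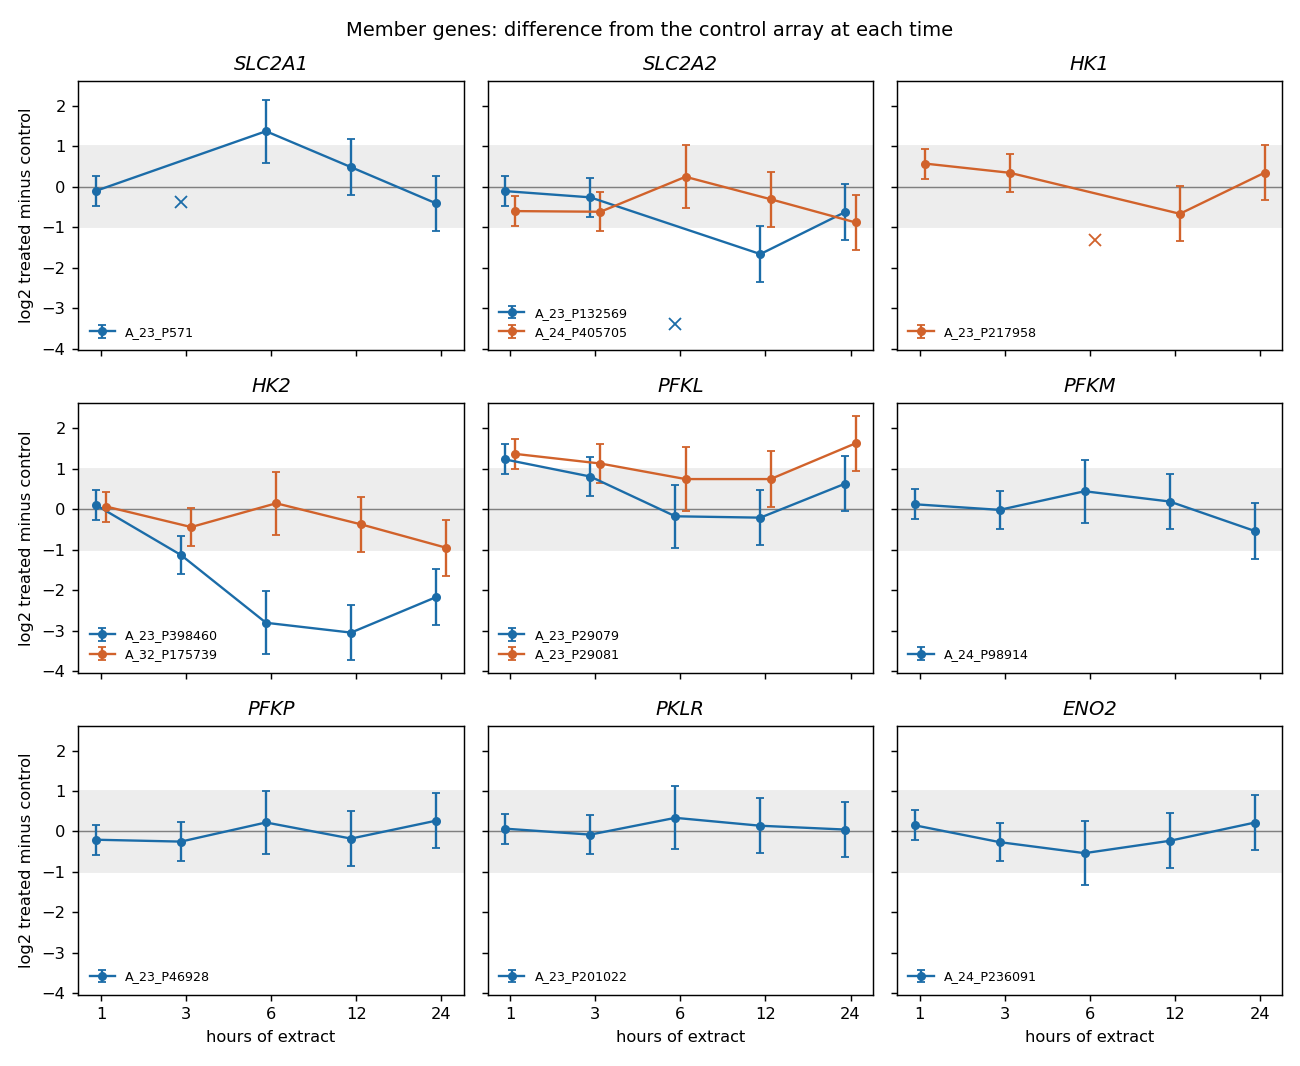
Log2 difference of treated minus control (vertical axis) at each hour of extract (horizontal axis, times evenly spaced) for every measured probe of the 9 genes. Bars are ± 1 single-probe SD, the grey band is within 2-fold, and crosses are values from a saturated spot or a spot not well above background. The blue HK2 probe lies between -1.13 and -3.05 from 3 h on while the orange one stays between -0.95 and 0.15.

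Counted in this way, 1 of 9 genes was at least 2-fold higher than the control at 1 h and 0 were at least 2-fold lower, beside 2.31% and 0.668% of the 12267 genes measured. That gene was PFKL. At 3 h the counts were 0 higher and 0 lower of 8, beside 3.13% and 3.06% of genes. At 6 h they were 1 higher, SLC2A1, and 0 lower of 7, beside 23.0% and 10.0%. At 12 h they were 0 higher and 1 lower, SLC2A2, of 9, beside 12.3% and 8.10%, and at 24 h 0 higher and 0 lower of 9, beside 7.20% and 9.40%. The medians of the genes at these 5 times were 0.07, -0.16, 0.22, -0.21 and 0.05, beside -0.05, -0.04, 0.35, 0.21 and 0.02 over all genes. HK2 enters these counts through its brighter probe, A_32_P175739, and so is in none of them as a 2-fold difference.

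Counted by probe, 2 of 12 measured probes were at least 2-fold higher at 1 h, both of PFKL, beside 2.90% of all probes, and 0 were lower, beside 0.924%. At 3 h 1 of 11 was higher (PFKL) and 1 lower (HK2), beside 4.61% and 4.71%. At 6 h 1 of 10 was higher (SLC2A1) and 1 lower (HK2), beside 23.9% and 10.6%. At 12 h 0 of 12 were higher and 2 lower (SLC2A2 and HK2), beside 13.0% and 10.3%. At 24 h 1 of 12 was higher (PFKL) and 1 lower (HK2), beside 8.38% and 14.0%. The share of all probes 2-fold away was largest at 6 h, on the dimmest array.

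SLC2A1 encodes GLUT1, the carrier that supplies basal glucose to many dividing cells. Its probe A_23_P571 read 34000 units on the control array and 45100, 65000, 17600, 26100 and 54800 units at 1, 3, 6, 12 and 24 h. It was bright on all 6 arrays, and the 3 h spot was saturated over 63.3% of its pixels. The control's scaled level was 5.47, and the treated arrays followed with 5.37, 6.85, 5.96 and 5.06 at 1, 6, 12 and 24 h. The differences at these 4 times were -0.10, 1.38, 0.49 and -0.41, with the SDs given above. Only that at 6 h exceeded 2-fold, at 2.60-fold higher. It was 0.26 after quantile normalization, 0.33 after cyclic loess and -0.27 after normexp background correction, so its size and its direction differed between these settings.

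The plot of spot signal against array brightness sets this probe beside the arrays. From the control array to the 6 h array the 75th percentile went from 768 to 153 units, whereas the SLC2A1 spot went from 34000 to 17600 units. A spot whose signal is lower by a smaller factor than the percentile gains a positive difference. Whether the bright range of the scanner has a part in that was not tested.

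**Figure D2:**
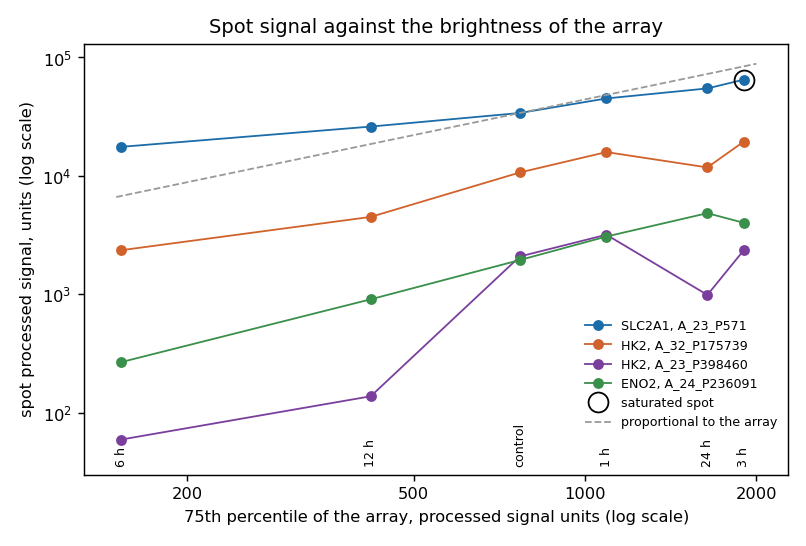
Processed signal of 4 probes (vertical axis, log scale) against the 75th percentile of their array (horizontal axis, log scale), with each array named at the foot. The dashed line is the signal of the SLC2A1 probe if it followed the percentile from the control array: at 6 h the probe reads 17600 units, above that line, while the HK2 probe A_23_P398460 reads 59.5 units.

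SLC2A2 encodes GLUT2, the carrier of hepatocytes and pancreatic beta cells. Its probe A_23_P132569 read 171 units on the control array and 226, 354, 3.28, 29.6 and 238 units at 1, 3, 6, 12 and 24 h, and the 6 h spot was not well above background. The second probe, A_24_P405705, read 81 units on the control array and 76, 131, 19.2, 35.9 and 94.1 units at these times. The first probe had differences of -0.10, -0.26, -1.66 and -0.62 at 1, 3, 12 and 24 h. At 6 h it gave only a rough bound, 2.45-fold lower, set against the lowest signal called well above background on that array. That bound is not firm, since an HK1 spot brighter than that lowest signal failed the background call. The second had -0.60, -0.61, 0.25, -0.30 and -0.88 at the 5 times. With the scaling used here the second stayed within 2-fold of the control and at 6 h lay on the other side of it, with an SD of 0.78. Its 6 h value was 2.02 after normexp background correction and 0.63 with the authors' deposited values.

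Both SLC2A2 probes were below the control at 1, 3, 12 and 24 h. At 12 h they differed from each other by 1.36, and after normexp background correction both lay above the control, at 0.19 for the first and 0.91 for the second. The probe that gave the larger difference was the following, which has a span of 149 bases in the file's coordinates. Capitals again mark the longest run of A and T.
SLC2A2 A_23_P132569: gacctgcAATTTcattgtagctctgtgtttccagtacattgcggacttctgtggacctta
It is placed at chr3:172198578-172198726 on the minus strand, in the same unstated build.

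HK1, the hexokinase of most tissues, was measured by 1 of its 2 probes. A_23_P217958 read 210 units on the control array and 445, 662, 16.8, 72.5 and 574 units at 1, 3, 6, 12 and 24 h. The control's scaled level was -1.87, and the treated arrays followed with -1.29, -1.52, -2.53 and -1.51 at 1, 3, 12 and 24 h. The 6 h spot was not well above background, and its own reading was 2.49-fold below the control. The differences were 0.58, 0.35, -0.66 and 0.36 at 1, 3, 12 and 24 h, so HK1 was above the control on the bright arrays and below it on the 12 h array. The value at 12 h was 0.33 after normexp. The other probe, A_24_P367965, read between 3.24 and 11.8 units and was not well above background on any array.

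HK2 is the inducible hexokinase of muscle, fat and many tumours. Its probe A_23_P398460 read 2090 units on the control array and 3190, 2360, 59.5, 138 and 990 units at 1, 3, 6, 12 and 24 h. The control's scaled level was 1.44, and the treated arrays followed with 1.55, 0.31, -1.36, -1.61 and -0.73 at these times. The level was thus highest at 1 h and on the control array, intermediate at 3 h, and lowest at 12 h and 6 h. The control and 1 h levels differed by 0.10 and the 6 h and 12 h levels by 0.24, both below the smallest single-probe SD.

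At 1 h this HK2 probe differed from the control by 0.10 (SD 0.37). The differences at 3, 6, 12 and 24 h were -1.13 (SD 0.48), -2.81 (SD 0.78), -3.05 (SD 0.68) and -2.17 (SD 0.69). The scaled signal was 0.456, 0.143, 0.121 and 0.222 of the control at 3, 6, 12 and 24 h. Each of these 4 differences was more than 2 single-probe SDs from 0. The scanner's own error of a difference was 0.22 or less at each time. The step from 12 h to 24 h was 0.88 upward, and the level at 24 h was 1.04 below that at 3 h. Over the 5 other scalings, background corrections and sources of values, together with the values given here, the 3 h difference lay between -1.19 and -1.04 and the 24 h difference between -2.25 and -2.05. The ranges were wider on the dim arrays, from -2.85 to -1.81 for 6 h and from -3.09 to -2.42 for 12 h. The 3 h and 24 h arrays are the brightest of the 6. Their 75th percentiles were 1900 and 1640 units, beside 768 on the control array. The unscaled signal at 3 h, 2360 units, was above the control's 2090 units, so the lower value there rests on the scaling. The part of array brightness in the HK2 values was not tested.

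The second HK2 probe, A_32_P175739, read 10700 units on the control array and 15900, 19500, 2360, 4510 and 11800 units at 1, 3, 6, 12 and 24 h. The control's scaled level was 3.80, and the treated arrays followed with 3.87, 3.36, 3.95, 3.42 and 2.85 at these times. The lowest level was at 24 h, and the control, 1 h and 6 h levels lay within 0.15 of each other. The differences were 0.07, -0.44, 0.15, -0.38 and -0.95, so this probe did not reach 2-fold at any time. At 6 h the value was -0.44 after quantile normalization, -0.51 after cyclic loess and -1.34 after normexp. At 24 h it lay between -0.95 and -0.80 in all 6 ways of processing, on the same side of the control as the first probe.

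The first minus the second HK2 probe was 0.04, -0.69, -2.95, -2.67 and -1.22 at 1, 3, 6, 12 and 24 h. Of genes with 2 measured probes, 93.6% had a gap at least this large at 1 h and 27.3% at 3 h. The share was 2.01% for 6 h (42 of 2092), 1.60% for 12 h (46 of 2884) and 19.6% for 24 h. The 2 probes therefore read alike at 1 h and stood far apart at 6 and 12 h with the scaling used here. Over the ways of processing, the 6 h difference lay between -2.85 and -1.81 for the first probe. For the second it lay between -1.34 and 0.15, so the size of the 6 h gap depended on the processing. Both lie on the same strand, with the second 2053 bases downstream of the first. Whether they read the same transcript was not tested. Of measured probes with under 40% G and C, the class of the first probe, 16.1% were at least 2-fold lower at 6 h, 13.6% at 12 h and 16.7% at 24 h. The 10th percentile of that class was -1.32, -1.20 and -1.35 at these times, above the probe's own -2.81, -3.05 and -2.17. In the class of the second probe, 40% to under 50% G and C, the shares at least 2-fold lower were 10.4%, 10.4% and 13.2%. The part of base composition in the HK2 values was not tested.

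**Figure D3:**
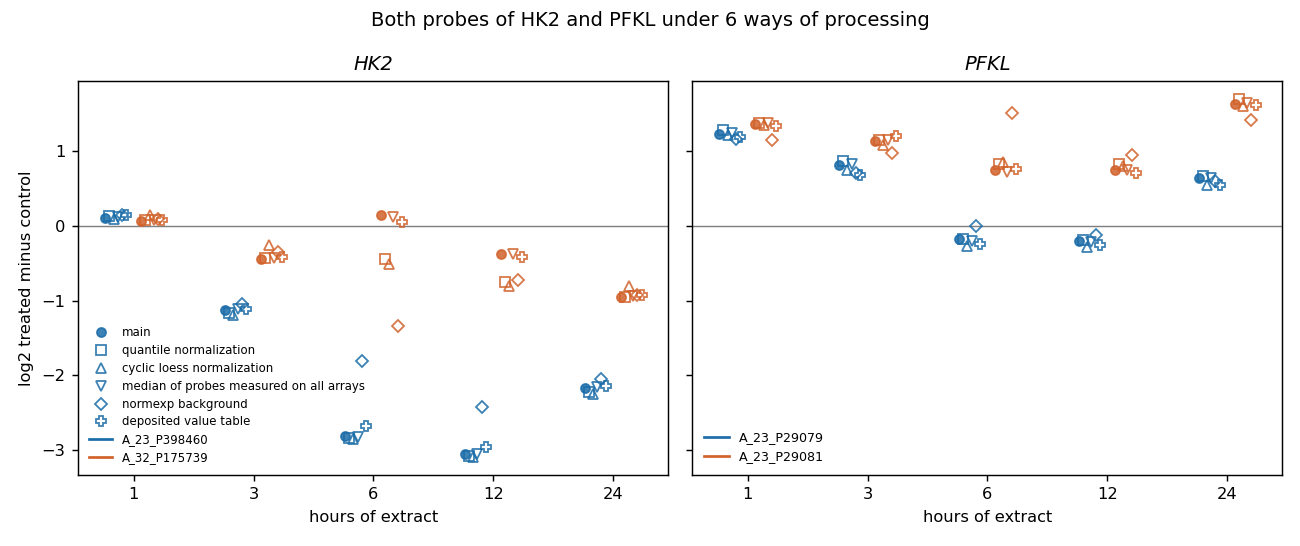
Log2 difference of treated minus control (vertical axis) for both probes of HK2 and PFKL at each hour of extract (horizontal axis), under the main scaling (filled) and 5 other ways of processing (open symbols, the same in both panels). HK2 A_23_P398460 (blue, left) lies below -1 at 3 h and later in all 6, and PFKL A_23_P29081 (orange, right) lies above 0 at every time.

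PFKL is the liver-type subunit of phosphofructokinase. Its probe A_23_P29079 read 748 units on the control array and 2490, 3240, 132, 354 and 2480 units at 1, 3, 6, 12 and 24 h. The control's scaled level was -0.04, and the treated arrays followed with 1.19, 0.77, -0.21, -0.25 and 0.60 at these times. The 1, 3 and 24 h levels were the high ones, and the control, 6 h and 12 h levels lay close together. The differences were 1.23, 0.81, -0.17, -0.21 and 0.63, of which the first, 2.35-fold, exceeded 2-fold.

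The other PFKL probe, A_23_P29081, read 168 units on the control array and 615, 909, 56.1, 154 and 1110 units at the 5 times. The control's scaled level was -2.19, and the treated arrays followed with -0.83, -1.06, -1.45, -1.45 and -0.56, so every treated array was above the control. The differences were 1.37, 1.13, 0.75, 0.75 and 1.63, so that the signal was 2.58-fold, 2.19-fold and 3.09-fold the control's at 1, 3 and 24 h. The 6 h and 12 h values were about 1 single-probe SD from 0, with SDs of 0.78 and 0.68. The step from 12 h to 24 h was 0.88 upward.

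The second minus the first PFKL probe was 0.14, 0.32, 0.92, 0.95 and 0.99 over the course. Gaps at least this large were found in 76.3%, 59.8%, 34.8%, 26.8% and 27.4% of genes with 2 measured probes, so the PFKL probes differed no more than many pairs did. Over the 6 ways of processing, the difference at 1 h lay between 1.17 and 1.29 for the first probe and between 1.15 and 1.38 for the second. At 3 h the ranges were 0.68 to 0.87 and 0.97 to 1.20, and at 24 h 0.55 to 0.66 and 1.41 to 1.70. Both probes were thus above the control on the 3 bright treated arrays however the values were made.

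Probes rich in G and C were high at 1 h as a class. Of 6970 measured probes with 50% G and C or more, the class of both PFKL probes, 6.33% were at least 2-fold higher at 1 h, with a median difference of 0.20 and a 90th percentile of 0.85. Among probes with under 40% these were 1.19% and a median of -0.19. The PFKL probes, at 1.23 and 1.37, lay above the 90th percentile of their class. At 24 h the class had a median of 0.02 and a 90th percentile of 1.12, with 12.4% at least 2-fold higher. The part of base composition in the PFKL values was not tested.

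The genes whose 5 differences were most like those of the brighter PFKL probe were sought among 9699 genes measured throughout, by root mean square distance. They were CORO1A, an actin-binding protein of immune cells, at 0.13, SMARCB1, a core subunit of the SWI/SNF chromatin remodeller, at 0.18, and BCL9L, a co-factor of beta-catenin, at 0.18. CORO1A had differences of 1.01, 0.91, -0.28, -0.08 and 0.64 at 1, 3, 6, 12 and 24 h. SMARCB1 had 1.01, 0.79, -0.47, -0.08 and 0.56, and BCL9L had 0.92, 0.67, -0.24, -0.04 and 0.74. All of these differences share the control array, and closeness over 5 values is a description.

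PFKM, the muscle-type subunit, read 121 units on the control array and 187, 296, 32.8, 75.5 and 178 units at the 5 times with its probe A_24_P98914. The differences were 0.12, -0.02, 0.44, 0.19 and -0.54. PFKP, the platelet-type subunit, read 572 units on the control array and 705, 1190, 133, 277 and 1470 units with its probe A_23_P46928. The differences were -0.20, -0.25, 0.22, -0.18 and 0.27. The scaled level of PFKP varied over a range of 0.52 among the 6 arrays and that of PFKM over 0.98. The ranges were 1.44 and 1.63 for the PFKL probes A_23_P29079 and A_23_P29081. They were 3.15 and 1.10 for the HK2 probes A_23_P398460 and A_32_P175739. Under the main scaling the muscle and platelet subunits thus stayed within 2-fold of the control at every time. Over the ways of processing, the PFKM difference at 6 h lay between 0.42 and 1.85. The differences of PFKL from them were not tested.

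PKLR encodes the pyruvate kinase of liver and red cells. Its probe A_23_P201022 read 290 units on the control array and 432, 680, 73, 175 and 640 units at 1, 3, 6, 12 and 24 h. The differences were 0.07, -0.08, 0.34, 0.14 and 0.05, and the range of its scaled level, 0.41, was the smallest among the probes compared here. None of its 5 differences exceeded 1 single-probe SD. Over the ways of processing, the PKLR difference at 6 h lay between 0.31 and 1.02.

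ENO2, the enolase best known from neurons and also made by many tumour lines, read 1950 units on the control array and 3080, 4020, 268, 909 and 4850 units with its probe A_24_P236091. The differences were 0.15, -0.26, -0.54, -0.23 and 0.22, each within 1 SD of 0, and the value at 6 h was -1.22 at its lowest over the ways of processing. SNAP25, a defining neuronal gene, was not well above background on any of the 6 arrays, and SYP and STMN2 were on 5 each.

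A trend over the course was tested with limma as a slope on log2(hours + 1) over the 6 arrays, with the control at 0 h by assumption. Its 4 residual degrees of freedom come from scatter about the line and not from replicates. After Benjamini-Hochberg adjustment 0 of 28642 probes passed 0.05, 0 of them among the 12 probes of the 9 genes fitted. At an unadjusted p under 0.05 there were 859 rising and 2275 falling probes, 3.00% and 7.94%, and 1 of the 12. That was HK2 A_23_P398460, with a fitted change from 0 to 24 h of -3.16 (SE 0.82) and a limma adjusted p of 0.273. The fitted change was -0.80 (SE 0.47, adjusted p = 0.595) for HK2 A_32_P175739, 0.88 (SE 0.60, adjusted p = 0.650) for PFKL A_23_P29081 and -0.27 (SE 0.69, adjusted p = 0.919) for PFKL A_23_P29079. The adjusted p of the other 8 probes lay between 0.706 and 0.979.

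Without the 6 h and 12 h arrays, which leaves 4 arrays and 2 residual degrees of freedom, 2387 probes passed the adjusted threshold, of which 498 rose and 1889 fell, 1.74% and 6.60% of all. HK2 A_23_P398460 was the only one of the 12 among them, with a fitted change of -2.38 (SE 0.43, limma adjusted p = 0.0166). HK2 A_32_P175739 had -1.05 (adjusted p = 0.110) and PFKL A_23_P29081 1.28 (adjusted p = 0.148) in that fit. The slope of HK2 A_23_P398460 was negative in all 15 other fits on this time scale, with adjusted p from 0.0166 to 0.959. On data simulated for the 6-array fit, 0 of 50 probes changed by 1 log2 unit were called, and 3 of 50 at 2 units. At 3 and 5 units 23 of 50 and 43 of 50 were called. The simulation gave each probe independent noise and made the changes linear in log2(hours + 1). On such data that fit called few changes of 2 log2 units or less. Shifts shared by the probes of an array were not simulated, so these rates may not hold for the real arrays.

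The rest of the pathway was followed through a list of 61 genes of glucose transport, glycolysis, lactate, pyruvate entry, glucose output and their regulators. Of the genes measured by their brightest probe, 0 of 45 were at least 2-fold higher and 0 lower at 1 h. At 3 h the counts were 0 and 3 of 44, at 6 h 10 and 2 of 45, at 12 h 4 and 3 of 50, and at 24 h 1 and 5 of 45, to be read against the same percentages of all genes. The list's medians were 0.03, -0.06, 0.23, -0.03 and -0.16. The brightest probe of 9 genes of the list was saturated in the differences at 1, 3 and 24 h, so these genes are not in the counts at those times. The dimmer probes of PGK1, a glycolytic kinase, disagreed with each other, with -1.97 and 1.06 at 24 h. GAPDH, LDHA, the enzyme that makes lactate, and SLC16A3, a lactate exporter, were saturated by their brightest probe in every difference. A dimmer LDHA probe had 0.67, 0.90, 0.30, -0.33 and 0.73 over the course. Another LDHA probe had 0.93 at 6 h and 0.21 at 12 h, on the other side of the control at 12 h. A dimmer SLC16A3 probe had -0.51, -1.68 and -4.03 at 1, 3 and 24 h. The brightest probe of ENO1, the main enolase, was measured at 6 and 12 h, with 1.11 and 0.91. The other ENO1 probe had 0.90, 1.08 and 0.91 at 1, 6 and 12 h. The brightest PKM probe had 0.12 and 0.05 at 6 and 12 h, and the other had 0.57, 0.11, -0.06, -0.01 and -0.02 over the course.

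Among the other hexose carriers, SLC2A3, the high-affinity carrier GLUT3, had differences of 0.24, -0.38, -1.47, -1.36 and -0.81 at 1, 3, 6, 12 and 24 h by its brightest probe. The other SLC2A3 probe had 0.71, 0.38 and -1.51 at 1, 3 and 24 h, on the other side of the control at 3 h. HK3, a further hexokinase, was not well above background for any difference. At 6 h the largest values were 3.08 for the fructose carrier SLC2A5 and 2.79 for SLC2A8, an intracellular carrier, of which SLC2A8 had 1.69 and 0.84 by its other probes. PDHA1, a subunit of pyruvate dehydrogenase, had 1.80 at 6 h and 1.24 at 12 h. SLC2A8 had 2.02 at 12 h by its brightest probe, with 0.94 and 1.00 by its other probes. The carrier SLC2A10 had -1.23 at 6 h and -1.35 at 12 h. MLXIP, a glucose-sensing factor, had -0.99 at 6 h, with 0.42 and 1.18 by its other probes.

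Regulators of phosphofructokinase gave mixed values. PFKFB3, which makes the activator fructose 2,6-bisphosphate, had -1.09 at 3 h by its brightest probe and -0.32, -1.38 and 0.22 by the others. PFKFB4 of the same family had 0.63, -0.44, -0.65, -0.47 and -0.35 over the course. TXNIP, which is induced by glucose and restrains glucose uptake, had -0.59, 0.37, 0.34, 1.06 and 0.93. EGLN3, an oxygen-sensing hydroxylase, had -1.08 at 3 h, and SLC2A4, the insulin-responsive carrier, had -1.16 at that time by its brightest probe and -0.03 by the other. At 24 h GCKR, a regulator of glucose phosphorylation in hepatocytes, had 1.38, the pyruvate dehydrogenase phosphatase PDP1 -1.41 and SLC2A5 -1.27. PDP1 had -1.78 at 12 h. Among values below 2-fold named by the same rule, SLC2A6 had 0.98 at 1 h and 0.92 at 24 h, HNF4A 0.90 at 1 h and 0.81 at 3 h by the brightest of its probes, and G6PC3 0.83 at 1 h. GCKR had 0.80 at 3 h, and ARRDC4, a relative of TXNIP, had -0.87 at 1 h and 0.78 at 3 h.

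**Figure D4:**
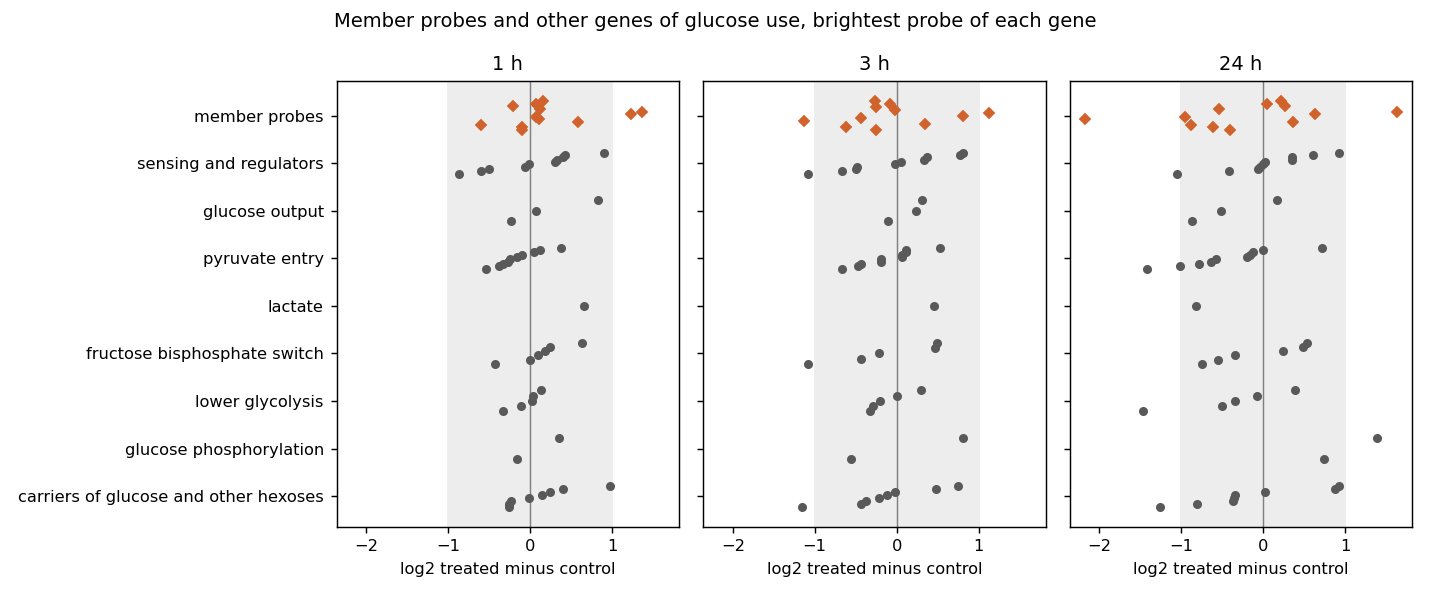
Log2 difference of treated minus control (horizontal axis) at 1, 3 and 24 h for the probes of the 9 genes (orange) and, by role, for the brightest probe of the other pathway genes measured (grey); the grey band is within 2-fold. At 24 h the HK2 probe A_23_P398460 at -2.17 and the PFKL probe A_23_P29081 at 1.63 lie outside the band; dimmer probes of the other genes are not drawn.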

How the data were processed

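RNA of HepG2 cells was measured on 6 single-channel Agilent arrays. Total RNA came from an RNeasy kit and was labelled with Agilent's Low RNA Input kit, per the labels' protocols. The extraction text also mentions mouse liver, while all 6 samples are labelled HepG2. Cy5 is the labelled dye, but only green-channel columns are in the files. The deposited scanner files hold intensity per spot, per the file headers, with a processed signal already corrected for background and not scaled between arrays. The authors' deposited value table holds linear, unscaled intensity for 35646 probes, within 0.51 units of median signal minus local background for 99.3% or more of the probes of every array, with column medians of 161.5, 226, 391, 40, 86 and 297.5. It is not log2. The scanner software's version is not given in the sources used here.

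Control spots (1639 per array) and spots with outlier flags were left out, and 40895 of 41000 probes remained. Spots of a probe were averaged. RefSeq (GRCh38.p14, names only) named 23434 probes of 16339 genes. Log2 processed signal minus the 75th percentile was compared with the control array, and slopes were fitted with limma 3.58.1 in R 4.3.3 to probes well above background on at least 3 arrays, and tested on simulated data. A bound sets the bright array against the higher of the dim spot's own signal and the lowest signal well above background on its array. It is rough, since the HK1 spot at 6 h failed the background call though brighter than that lowest signal. Named genes were the 9 genes, the 3 most raised and 3 most lowered pathway genes at each time past 1.5-fold, SLC2A3, ENO1, PKM, GAPDH, LDHA, PFKFB3, PFKFB4 and TXNIP, and the 3 genes most like a member with a 2-fold difference that was measured on all arrays. SLC16A3, HK3 and PGK1 were named after their values were seen. A few pathway genes that this rule names are not reported here. The genes and lists were chosen with earlier results of these data known. The number of arrays limits the precision, and separate cultures are not stated.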

Additional observations from a re-analysis of the deposited data

How the results depend on the processing

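With 1 array a group, 2-fold counts rest on single arrays. Of 285 values of 57 differences of the 9 genes under 5 other settings (quantile, cyclic loess, median scaling, normexp, deposited value table), 274 stayed within 1 single-probe SD. Of the others, 2 that had been 2-fold away changed sign, SLC2A1 at 6 h (-0.27) and SLC2A2 A_23_P132569 at 12 h (0.19), both under normexp, and 9 moved by more than 1 SD. Of these 9, 3 changed sign under normexp: SLC2A2 A_24_P405705 at 12 h (0.91), HK1 A_23_P217958 at 12 h (0.33) and HK2 A_32_P175739 at 6 h (-1.34). A further 9 values changed sign within 1 SD, which makes 14 sign changes in all. The cause was not tested. Median scaling shifts every probe of an array by the same amount, so its values add little to the count of 274. Under it SLC2A1 at 6 h went from 1.38 to 1.35.

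Among the 9 genes, the count higher at 6 h was 0 with quantile normalization, 0 with cyclic loess and 2 with normexp. The count lower at 6 h was 2 with normexp, 2 with no filter and 1 with the mean of a gene's probes, and at 12 h 0 with normexp. The mean of a gene's probes gave 1 higher and 1 lower at 24 h. With a 1.5-fold threshold 1 was higher at 3 h, 2 lower at 12 h, and 1 higher and 2 lower at 24 h. The shares of all genes under these settings are not given here, so these counts show only how the processing moved them. The trend called 1 probe without the 6 h and 12 h arrays, and 0 without each single array in turn. The slope of SLC2A1 and of ENO2 changed sign in 5 of 15 fits, of PFKL A_23_P29079 in 3, and of HK1 A_23_P217958, PFKM and SLC2A2 A_24_P405705 in 2, passing in none.

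Among the 61 pathway genes, quantile normalization gave 5 higher and 4 lower at 6 h, 2 higher at 12 h, and 4 higher and 3 lower at 24 h. Cyclic loess gave 1 higher at 3 h, 5 higher and 5 lower at 6 h, 2 higher at 12 h and 3 higher at 24 h. Median scaling gave 4 lower at 6 h. Normexp gave 13 lower at 6 h, 0 lower at 12 h and 2 lower at 24 h. The deposited table gave 1 lower at 1 h and 2 higher at 12 h. With no filter 4 were higher at 3 h, 17 higher and 4 lower at 6 h, 7 higher at 12 h and 2 higher at 24 h. These counts too lack the share of all genes under the same setting, and are not results about the pathway.

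A block by slide or scan was not run, since each group has 1 array. No paired analysis was possible because each group has 1 array.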
